A study of Mus musculus with 2 samples.

Results

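The 10 genes described here are the cyclin-dependent kinase inhibitors Cdkn2a, Cdkn2b, Cdkn2c, Cdkn2d, Cdkn1a and Cdkn1b, the p53 gene Trp53 with its antagonist Mdm2, and the D-type cyclins Ccnd1 and Ccnd2. They were chosen by symbol and not by their values, and all 10 were found among the 31053 genes of both count matrices. The matrices hold single-cell RNA counts of stromal cells isolated from the perivascular fat of the mouse aorta. The 2 libraries came from wild-type (WT) mice, 1 young and 1 old, and were both made from dissected tissue digested with collagenase. Neither the ages of the mice nor the number pooled in each library is given in the sources used here. With 1 library per age, a difference between the libraries has no replicate check, and age cannot be told apart from the mice, the digest or the library preparation.

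D-type cyclins activate the kinases CDK4 and CDK6, which phosphorylate the retinoblastoma protein and let a cell enter S phase. Inhibitors of the INK4 family, encoded by Cdkn2a to Cdkn2d, bind these kinases, while the CIP/KIP proteins p21 (Cdkn1a) and p27 (Cdkn1b) act on a wider range of cyclin-kinase complexes. The transcription factor p53 induces Cdkn1a after DNA damage and other stress, and it also induces Mdm2, whose product marks p53 for degradation. Cdkn2a yields both p16Ink4a and, from an upstream first exon read in another frame, p19Arf, which restrains Mdm2. Cdkn2a and Cdkn1a transcripts are widely used as markers of senescence, although neither is specific to it.

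On GRCm38, the build also called mm10, Cdkn2a lies on the reverse strand at chr4:89274471-89294653 and its neighbour Cdkn2b on the same strand at chr4:89306299-89311039, 11646 bases apart. Cdkn1a lies on the forward strand at chr17:29090976-29100727, and Mdm2 on the reverse strand at chr10:117688875-117710758. RefSeq start-site windows on GRCm38.p6, each with 250 bases before and 50 after the start, were held for 8 of the 10 genes in 11 windows. Cdkn2a has a pair of start sites 12427 bases apart, of which the upstream one opens the p19Arf transcript and the downstream one the p16Ink4a transcript. Both transcripts end in the same 3′ exons, from which the 3′ chemistry reads its tags, so a Cdkn2a count does not tell them apart. The windows of this pair, chr4:89294570-89294869 and chr4:89282143-89282442 on the reverse strand, are printed 5′ to 3′ because each Cdkn2a value below is a sum over both starts. Capitals mark GGGCGG on either strand, a GC box, which 35.7% of all 32851 windows hold.
Cdkn2a, p19Arf start: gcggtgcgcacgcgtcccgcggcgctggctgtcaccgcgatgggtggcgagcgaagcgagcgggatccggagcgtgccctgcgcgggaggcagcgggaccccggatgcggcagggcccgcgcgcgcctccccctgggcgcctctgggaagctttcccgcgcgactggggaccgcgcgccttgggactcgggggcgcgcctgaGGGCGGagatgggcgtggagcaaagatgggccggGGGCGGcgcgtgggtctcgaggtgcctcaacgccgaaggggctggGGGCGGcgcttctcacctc
Cdkn2a, p16Ink4a start: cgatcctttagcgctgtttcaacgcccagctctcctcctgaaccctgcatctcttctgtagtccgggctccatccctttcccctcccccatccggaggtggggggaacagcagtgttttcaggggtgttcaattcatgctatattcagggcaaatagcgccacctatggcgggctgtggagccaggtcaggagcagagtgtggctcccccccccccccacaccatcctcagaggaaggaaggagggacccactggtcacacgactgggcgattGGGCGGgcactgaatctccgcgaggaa

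Cdkn1a and Mdm2 are shown because both are textbook p53 targets and both stood higher in the old library. The Cdkn1a window at the upstream of its starts, chr17:29090729-29091028 on the forward strand, holds 2 copies of CATG with any 6 bases between them, a core of the p53 recognition pattern. That arrangement is in 0.712% of all windows and in 1 of the 11 windows of these genes. It is in capitals in the Cdkn1a line. Mdm2's window, chr10:117710709-117711008 on the reverse strand, carries no match to that pattern, and its known p53 sites lie within the gene's first intron. Capitals in the Mdm2 line mark the GC boxes. A match of letters is a description and not evidence of binding.
Cdkn1a, upstream start: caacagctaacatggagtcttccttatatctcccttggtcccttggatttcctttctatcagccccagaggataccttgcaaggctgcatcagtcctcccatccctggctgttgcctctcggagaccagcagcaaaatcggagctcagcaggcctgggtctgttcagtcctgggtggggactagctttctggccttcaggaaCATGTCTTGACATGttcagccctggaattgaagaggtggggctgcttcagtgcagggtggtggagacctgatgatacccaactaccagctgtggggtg
Mdm2: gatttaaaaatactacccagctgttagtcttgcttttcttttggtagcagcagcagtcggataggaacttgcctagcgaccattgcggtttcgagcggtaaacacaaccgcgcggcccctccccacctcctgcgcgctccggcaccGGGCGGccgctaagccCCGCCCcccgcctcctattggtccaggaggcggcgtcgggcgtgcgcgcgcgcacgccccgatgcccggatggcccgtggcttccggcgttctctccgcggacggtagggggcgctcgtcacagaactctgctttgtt

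Levels are given as unique molecular identifiers (UMIs) of a gene per 1000000 UMIs of the summed cells (CPM), with 95% Poisson intervals. These intervals, like those of ratios and of shares, cover counting error only. After filtering, 11453 young and 12207 old cells remained, with medians of 8916 and 9230 UMIs. The libraries shared 275 cell barcodes, of which 205 were kept in both. Cells were gated by markers: a cell belonged to a gate when at least 4 of 8 markers of a type had a UMI. The other gates took precedence, so the mesenchymal gate held only cells that passed none of them. The mesenchymal gate (collagen genes, Pdgfra, Pdgfrb, Dcn and others) held 9230 young and 9862 old cells. It contained 8 of 8 mesenchymal markers in each library, at summed levels of 6717 and 5359 CPM. Blood endothelial markers summed there to 13.1 CPM in young and 40.5 CPM in old cells, and macrophage markers to 14.1 and 30.9 CPM. Pericyte markers summed to 24.0 and 64.0 CPM and adipocyte markers to 6.69 and 12.1 CPM. Mesothelial markers went the other way, at 16.1 and 6.71 CPM. The mesothelial gate held 215 young and 35 old cells, the blood endothelial gate 30 and 1041, the Schwann gate 34 and 46, the macrophage gate 1 and 95, and the adipocyte gate 7 and 97. No gate other than the mesenchymal one reached 50 cells in both libraries. A gate is a cut through a range: 3152 young and 2213 old mesenchymal cells lay at exactly 4 markers, and 1436 and 1022 cells, at 3, lay just outside.

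**Figure D1:**
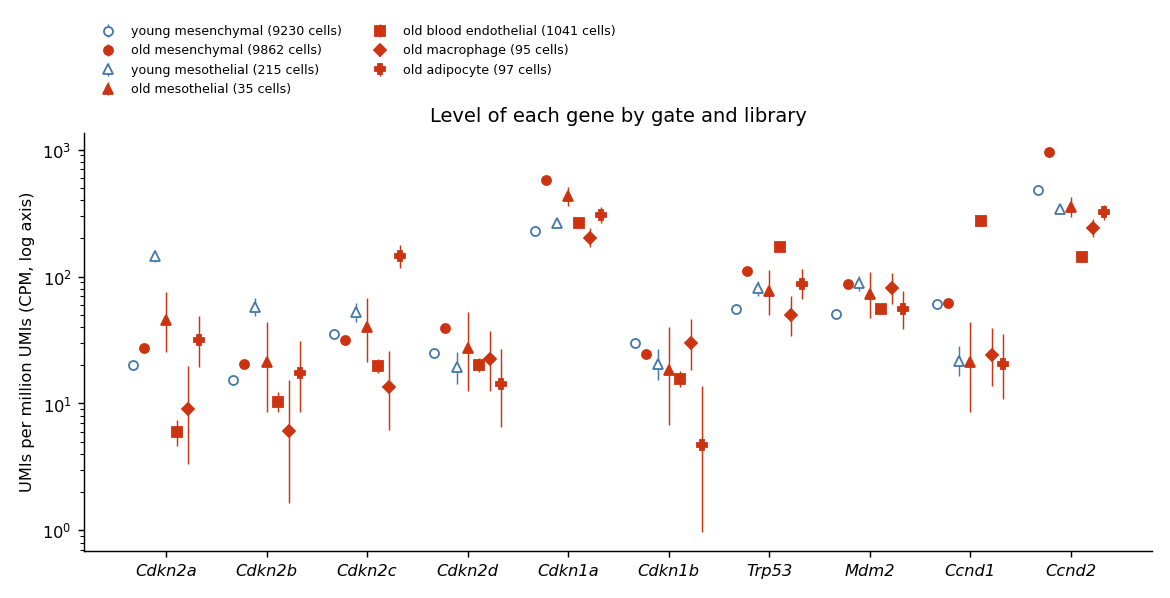
Level of each gene in CPM (log axis) by marker gate and library, with 95% counting intervals as bars. Ccnd2 and Cdkn1a in old mesenchymal cells reached 960 and 580 CPM. Among the gates drawn, Cdkn2a was highest in young mesothelial cells at 145 CPM and Cdkn2c in old adipocytes at 145 CPM. Ccnd1 was highest there in old endothelial cells at 274 CPM. Schwann cells and young endothelial cells, which had more Ccnd1, are not drawn.

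The first comparison set the old against the young library in mesenchymal cells. Cdkn1a, Trp53, Ccnd2, Mdm2 and Cdkn2d were higher in the old library by 1.5-fold or more, and no gene of the 10 was 1.5-fold lower. Of all 15139 genes with at least 20 UMIs, 19.3% were higher and 12.4% lower by this limit. The median log2(old/young) of the 10 genes was 0.54, beside 0.12 for all genes.

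Cdkn1a, the p21 gene, stood at 230 CPM (227 to 233) in young and 580 CPM (576 to 585) in old cells, a log2 ratio of 1.33 (1.31 to 1.36). Of the 10 genes it had the largest ratio in this gate, and 6.42% of all genes had a larger one. Trp53 itself was at 55.8 CPM in young and 111 CPM in old cells, 1.98-fold higher. Mdm2 was at 51.1 CPM in young and 87.2 CPM in old cells, a log2 ratio of 0.77 (0.72 to 0.82). All of the p53 axis proper was thus higher in the old library, beyond counting error. Cdkn1b, the p27 gene, went the other way: 29.8 CPM in young and 24.7 CPM in old cells, a log2 ratio of -0.27 (-0.35 to -0.19), short of the 1.5-fold limit.

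The D-type cyclins parted. Ccnd2 was at 484 CPM in young and 960 CPM in old cells, 1.98-fold higher, whereas Ccnd1 was at 60.9 and 62.2 CPM, a log2 ratio of 0.03 (-0.02 to 0.08). Among the INK4 genes, Cdkn2d was at 24.8 CPM in young and 39.0 CPM in old cells, 1.57-fold higher. Cdkn2a was at 20.1 CPM (19.2 to 21.0) in young and 27.1 CPM (26.1 to 28.1) in old cells, a log2 ratio of 0.43 (0.35 to 0.52). Cdkn2b was at 15.3 CPM in young and 20.5 CPM in old cells, a log2 ratio of 0.42. Cdkn2c was slightly lower, 35.5 against 31.6 CPM. The Cdkn2a and Cdkn2b levels were therefore apart between the libraries by more than counting error but by less than 1.5-fold.

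Cdkn2a in this gate was sensitive to cells with mesothelial transcripts, since some cells with up to 3 mesothelial markers fell into the mesenchymal gate. In the 8601 young and 9500 old mesenchymal cells without a UMI of any mesothelial marker, the log2 ratio of Cdkn2a was 0.67, past the 1.5-fold limit. Scaling by the median ratio over genes, in place of the UMI total, moved the median gene by 0.13 on the log2 scale. Under it 15% of genes were higher and 15.5% lower. The log2 ratio of Cdkn2d was 0.52 there, below the limit, and Ccnd1 turned to -0.10. Cdkn1a, Trp53, Mdm2 and Ccnd2 stayed past it.

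The stress-response genes Atf3 and Gdf15 were also higher in old mesenchymal cells, at 17.0 against 2.79 CPM for Atf3 and 51.7 against 4.42 CPM for Gdf15. Cells without a UMI of either made up 93.8% of young and 69.9% of old mesenchymal cells. Among them Cdkn1a had a log2 ratio of 1.11, Trp53 of 0.96, Ccnd2 of 1.01 and Cdkn2d of 0.62. Mdm2 stood at 0.59, next to the limit. Gdf15 is itself a p53 target, so this subset is not chosen independently of the axis.

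**Figure D2:**
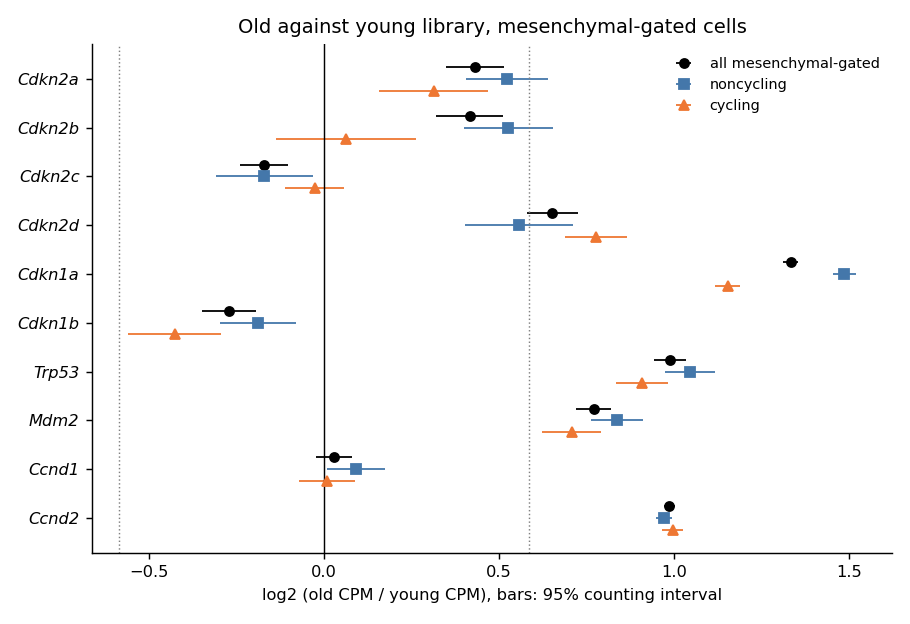
log2 ratio of old to young CPM for each gene in all, noncycling and cycling mesenchymal cells, with 95% counting intervals, a solid line at equal levels and dotted lines at 1.5-fold. Cdkn1a was at 1.33, 1.49 and 1.15, Ccnd2 near 1 in all 3 sets, and Ccnd1 within 0.10 of 0.

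The same comparison was made separately in cycling and noncycling mesenchymal cells. A cell was called cycling with at least 4 of 8 mitotic or 4 of 8 S-phase markers and noncycling with at most 1 of each; none of the 10 genes is among these markers. Cycling cells numbered 2383 (young) and 2281 (old), noncycling cells 5189 and 5900, and 1658 and 1681 lay between. In noncycling cells Cdkn1a was at 202 CPM in young and 566 CPM in old cells, a log2 ratio of 1.49 (1.45 to 1.52). In cycling cells it was at 276 and 615 CPM, a log2 ratio of 1.15 (1.12 to 1.19). Cdkn1a was thus higher in the old library in dividing and nondividing cells alike. Of the 10 genes, 4 were 1.5-fold higher in noncycling cells, where 20.6% of genes were, and 5 in cycling cells, where 16.6% were. The gene between these counts was Cdkn2d, at 1.47-fold in noncycling and 1.71-fold in cycling cells.

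Cells of the same libraries that passed no gate, 1936 young and 1011 old, were read as well. They had a median of 3 mesenchymal markers in each library. Among them 3 of the 10 genes were higher, against 16.4% of genes, and Cdkn1b was lower, against 11.2%. Cdkn1a had a log2 ratio of 1.15 and Trp53 of 0.97. The make-up of these cells differed: endothelial markers summed to 17.1 CPM in young and 184 CPM in old ones. Adipocyte markers summed to 6.10 and 45.6 CPM, macrophage markers to 9.26 and 38.0 CPM, and mesothelial markers to 19.4 and 6.75 CPM. The part of this make-up in the ratios was not tested.

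Cdkn1a moved with the depth of a cell. In noncycling mesenchymal cells of the young library its level went from 148 CPM in cells under 5000 UMIs to 300.2 CPM in cells with 15000 or more. In the old library the corresponding levels were 416 and 719 CPM. Within each of the 4 depth bins the old library was above the young one. Ccnd1 showed a similar slope with depth, from 31.8 to 90.4 CPM in the young and from 32.6 to 74.0 CPM in the old library. Mdm2 rose too, from 37.8 to 65.2 CPM in the young and from 67.5 to 101 CPM in the old library. Cdkn1b ran the other way, from 80.5 to 21.6 CPM in the young and from 44.5 to 17.3 CPM in the old library. In the bins between, the libraries were closer for Cdkn1b. It was at 31.3 CPM (young) and 29.6 CPM (old) from 5000 UMIs, and at 22.9 and 22.4 CPM from 10000 UMIs.

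The next comparison asked which of these genes differ between cycling and noncycling mesenchymal cells within a library. Cdkn2c, Cdkn2d and Ccnd1 were at least 1.5-fold higher in cycling cells of both libraries. In the young library 12.4% of genes were higher and 11.5% lower in cycling cells, and in the old library 10.5% and 12.4%.

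Cdkn2d, the p19Ink4d gene, was at 11.7 CPM in noncycling and 51.9 CPM in cycling young cells, and at 17.2 and 88.8 CPM in old cells. Its log2 ratios were 2.15 and 2.36. Cdkn2c, the p18Ink4c gene, was at 18.4 and 69.9 CPM in young and at 16.3 and 68.6 CPM in old cells, log2 ratios of 1.93 and 2.07. These ratios ranged from 3.81-fold to 5.15-fold over cycling cells as a whole. In the cells with S-phase markers only, split off below, Cdkn2d was at 20.5 CPM (young) and 11.7 CPM (old). Ccnd1 was at 46.1 and 76.9 CPM in young and at 49.1 and 77.4 CPM in old cells, log2 ratios of 0.74 and 0.66. In cells of 5000 to 15000 UMIs the old Ccnd1 ratio was 0.39, under the limit.

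The other INK4 pair was level or lower in cycling cells. Cdkn2b was at 17.3 CPM in noncycling and 12.7 CPM in cycling young cells, and at 24.9 and 13.3 CPM in old cells. Its log2 ratios were -0.44 (-0.62 to -0.27) and -0.91 (-1.07 to -0.75), so that only the old library passed the 1.5-fold limit; the difference between the libraries was not tested. Cdkn2a had log2 ratios of -0.13 (-0.28 to 0.02) in young and -0.34 (-0.46 to -0.21) in old cells. Ccnd2 was also lower in cycling cells, at log2 ratios of -0.39 and -0.37. Cdkn1a, Trp53 and Mdm2 had ratios between 0.12 and 0.50, and Cdkn1b lay at 0.19 and -0.04.

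**Figure D3:**
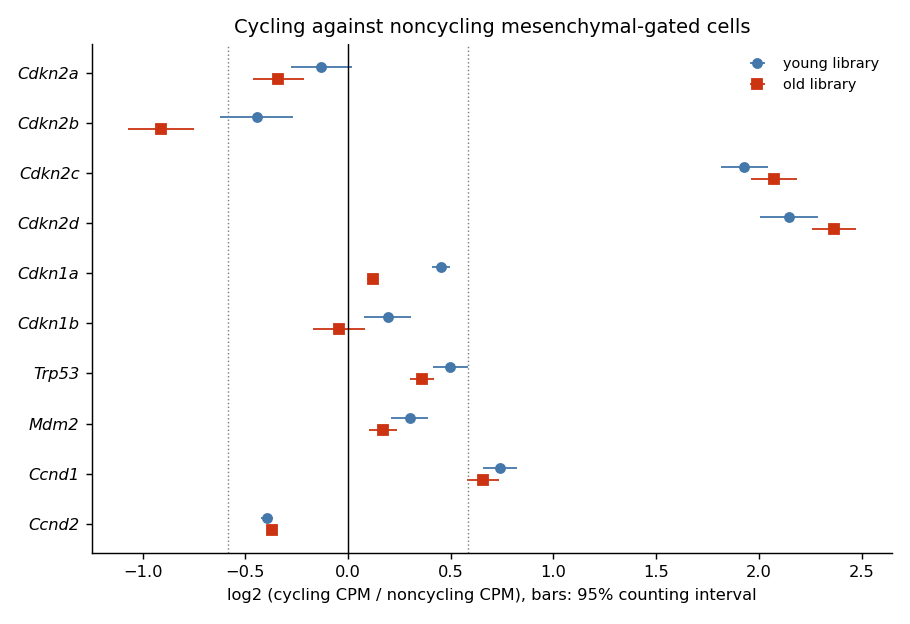
log2 ratio of cycling to noncycling CPM for each gene in the young and the old library, with 95% counting intervals, a solid line at equal levels and dotted lines at 1.5-fold. Cdkn2c and Cdkn2d lie between 1.93 and 2.36 in both libraries, and Cdkn2b lies at -0.44 and -0.91.

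Cycling cells were split further by their markers. S-phase-only cells had S-phase markers and at most 1 mitotic marker (97 young, 75 old), mitotic-only cells the reverse (225 and 119), and 932 and 1189 cells passed both lists. In mitotic-only against S-phase-only cells Cdkn2c, Cdkn2d and Cdkn1b were at least 1.5-fold higher in both libraries, beside 12.5% of genes (young) and 14.5% (old). Cdkn2c was at 27.7 CPM in S-phase-only and 65.9 CPM in mitotic-only young cells, and at 23.5 and 52.9 CPM in old cells. Cdkn1b, flat in the comparison with noncycling cells, was at 21.4 and 55.4 CPM in young cells and at 16.0 and 33.9 CPM in old cells. Both D-type cyclins leaned the other way. Ccnd1 was at 116 CPM in S-phase-only and 53.1 CPM in mitotic-only young cells, a log2 ratio of -1.13 (-1.50 to -0.76), and -0.42 (-0.88 to 0.05) in the old library. Ccnd2 had ratios of -0.72 and -0.57. Lower by the limit were Ccnd1 and Ccnd2 in the young library, beside 8.13% of genes, and Cdkn2a in the old library on 19 and 32 UMIs, beside 6.99%.

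**Figure D4:**
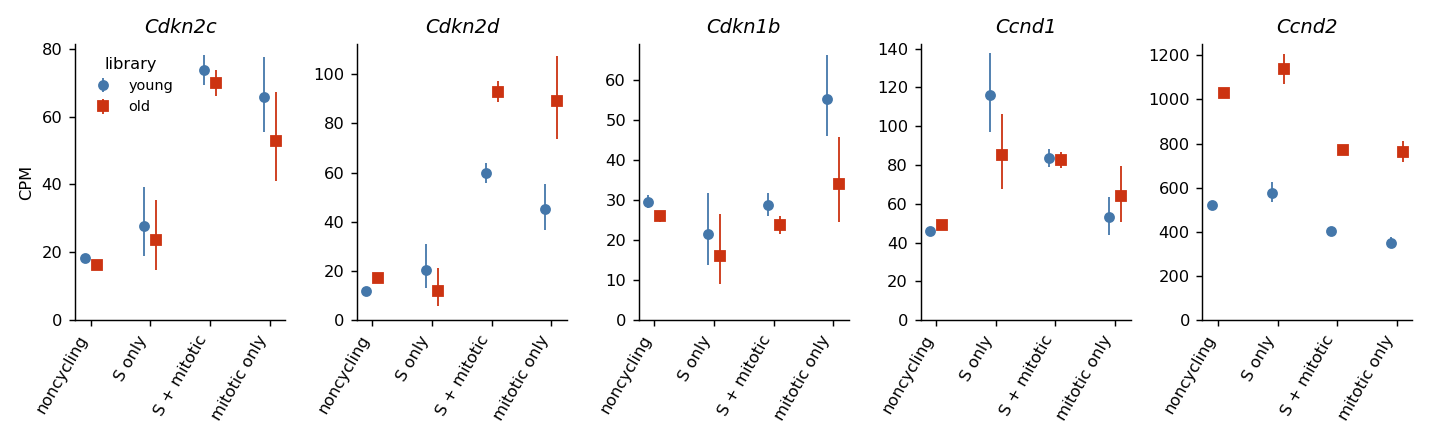
CPM of Cdkn2c, Cdkn2d, Cdkn1b, Ccnd1 and Ccnd2 in noncycling, S-phase-only, S-phase and mitotic, and mitotic-only mesenchymal cells of the young and old library, with 95% counting intervals. Cdkn2c and Cdkn2d are high where mitotic markers are present, and Ccnd2 of the old library lies above that of the young one in every class. Ccnd1 of the young library is highest in S-phase-only cells. In the old library Ccnd1 is at 85.4 CPM in S-phase-only and 82.6 CPM in S-phase and mitotic cells, with overlapping intervals.

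Mesothelial cells, which line serous membranes, held most Cdkn2a per UMI of any gate with 50 cells. The young cells of this gate also carried a median of 5 of 8 mesenchymal markers, summing to 4307 CPM, so the gates are not cleanly apart. In the young library 215 mesothelial cells had 145 CPM (131 to 161) of Cdkn2a, from 368 UMIs, against 20.1 CPM in mesenchymal cells, a log2 ratio of 2.85 (2.69 to 3.01). Its neighbour Cdkn2b was at 58.0 CPM (49.0 to 68.2) against 15.3 CPM, a log2 ratio of 1.92 (1.66 to 2.16). Both INK4 genes of the locus were thus well above the mesenchymal gate of the same library. Mdm2 was 1.74-fold higher as well and Ccnd1 lower, at 21.7 against 60.9 CPM, so that 3 of the 10 genes were higher, beside 20.1% of genes, and 1 lower, beside 16.4%. The Cdkn2a level did not follow division: in young mesothelial cells it was 144 CPM in cycling and 135 CPM in noncycling cells, a log2 ratio of 0.10 (-0.24 to 0.44). In this comparison, with 19.7% of genes higher, Cdkn2c and Cdkn2d again stood higher in cycling cells, as did Cdkn1b, Trp53 and Ccnd1. The intervals of Cdkn1b, on 28 and 18 UMIs, and of Ccnd1, on 27 and 16 UMIs, hold 0.

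In the old library 35 cells passed the mesothelial gate, under the minimum of 50. They had 45.8 CPM (25.7 to 75.6) of Cdkn2a from 15 UMIs, against 27.1 CPM in old mesenchymal cells, a log2 ratio of 0.76 (-0.08 to 1.48). Cdkn2a counted as higher in this gate, beside 19.8% of genes, while Ccnd1 and Ccnd2 counted as lower, beside 17.1%. Old against young, mesothelial Cdkn2a had a log2 ratio of -1.66 (-2.52 to -0.92), opposite in sign to the 0.43 of mesenchymal cells. Cdkn2b was at 21.4 CPM from 7 UMIs in the old and 58.0 CPM in the young library, a log2 ratio of -1.44 (-2.78 to -0.36). Cdkn1a was higher in the old library here too, at 428 against 264 CPM. Of all genes 17.6% were higher and 18.5% lower in this pair of gates. With a looser gate of 3 of 8 markers, 331 young and 61 old cells had 159 and 42.8 CPM of Cdkn2a, a log2 ratio of -1.90 (-2.54 to -1.32). The 35 old cells still summed to 1241 CPM of mesothelial markers, against 1135 CPM in the 215 young ones, and contained all 8 of them. Mesenchymal markers summed higher in the same cells, to 3648 CPM in old and 4307 CPM in young ones.

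Cdkn2a could also be followed over the number of mesothelial markers without a gate. In the young library it was at 17.4 CPM in cells with none of the 8, 23.0 CPM with 1, 96.5 CPM with 2 and 188 CPM with 3. It then lay at 150 CPM with 4, 168 CPM with 5 and 76.3 CPM in the 29 cells with 6 or more. In the old library it was at 27.4 CPM with none, 26.8 CPM with 1, 33.9 CPM with 2 and 38.9 CPM with 3. The old values at 4 and more markers rested on 17, 12 and 6 cells. Where the young cells had 2 or 3 markers, on 97 and 116 cells, their interval lay above that of the old cells. Where they had none, the old cells were higher.

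**Figure D5:**
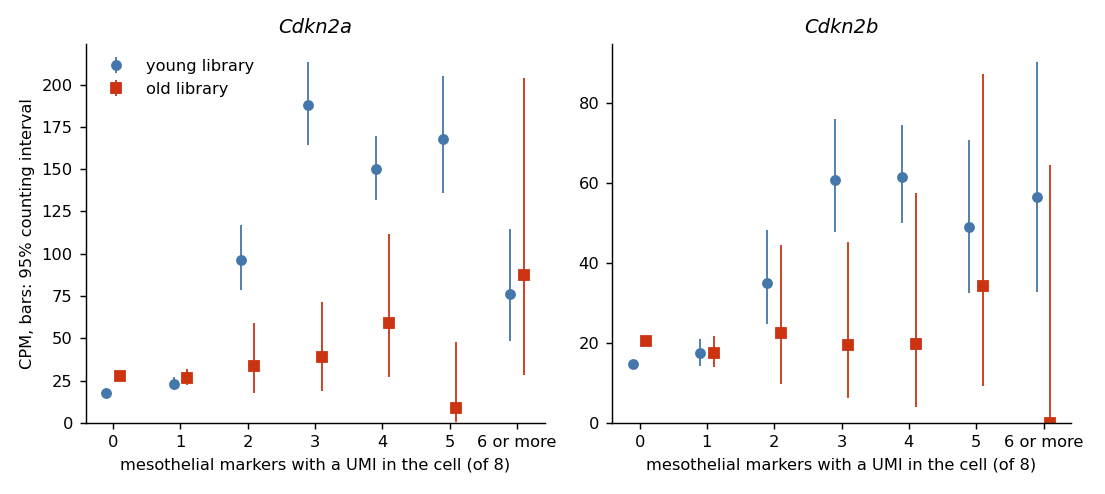
CPM of Cdkn2a and Cdkn2b against the number of mesothelial markers with a UMI in a cell, in the young and the old library, with 95% counting intervals. Young Cdkn2a goes from 17.4 CPM at no marker to 188 CPM at 3, while old Cdkn2a goes from 27.4 to 38.9 CPM over the same range.

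Other gates with at least 50 cells were found in the old library only, and were set against its mesenchymal cells. Blood endothelial cells had less of 8 of the 10 genes and more of Ccnd1 and Trp53, beside 28.8% of genes lower and 15.9% higher. Ccnd1 was at 274 CPM (265 to 284) in endothelial and 62.2 CPM in mesenchymal cells, 4.41-fold higher, while Ccnd2 was at 143 against 960 CPM, 6.72-fold lower. The D-type cyclin that dominated thus differed between these cell types. Trp53 was at 169 CPM in endothelial cells, 1.53-fold above mesenchymal cells. Cdkn2a was at 5.92 CPM (4.63 to 7.46), the lowest of the gates with 50 cells, next to macrophages at 9.02 CPM (3.31 to 19.6), from which its interval did not part.

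Macrophages had less of 8 of the 10 genes, beside 32.1% of genes lower and 18.2% higher, with Cdkn1b and Mdm2 within the limit. Adipocytes had less of 6, beside 23.4% of genes lower, and more of 1, beside 21.2% higher. That gene was Cdkn2c, at 145 CPM (117 to 177) in 97 adipocytes against 31.6 CPM in mesenchymal cells, 4.58-fold higher, and the highest level of Cdkn2c in any gate with 50 cells. Cdkn1b was at 4.72 CPM from 3 UMIs in adipocytes, a log2 ratio of -2.39 (-4.67 to -0.84). The median mitochondrial share of these adipocytes was 6.53%, against 2.28% in old mesenchymal cells; its part in the result was not tested.

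Schwann cells, which ensheath peripheral axons, were under 50 cells in each library at 4 of 8 markers. Their Ccnd1 was at 688 CPM in 34 young and 400.3 CPM in 46 old cells, above the endothelial gate of the same library (418 CPM in 30 young cells), and Cdkn1a at 158 and 160.1 CPM. With the gate at 3 of 8 markers, 81 young and 86 old Schwann cells had Ccnd1 at 732 and 423 CPM, a log2 ratio of -0.79 (-1.05 to -0.54). Ccnd2 was at 48.3 and 147 CPM there, a log2 ratio of 1.61 (0.97 to 2.28), and Cdkn1a at 140.1 and 147 CPM, a ratio of 0.07 (-0.42 to 0.55). For Cdkn1a the Schwann interval holds 0, and whether these glia differ from mesenchymal cells was not tested. Schwann Cdkn2a at 3 of 8 markers was 32.7 CPM (young) and 71.2 CPM (old), a log2 ratio of 1.12 (0.278 to 1.996). These levels rest on 21 and 31 UMIs. Old mesothelial cells at 3 of 8 markers had 42.8 CPM. Schwann Cdkn2d was at 40.5 and 87.3 CPM, and Cdkn2c at 79.4 and 124 CPM. At 4 of 8 markers old Schwann cells had 138 CPM (93.7 to 196) of Cdkn2c, close to the 145 CPM of adipocytes. Of all genes 17.6% were higher and 13.8% lower in old Schwann cells at 3 of 8 markers.

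Shares of cells were compared after each cell was thinned to 2000 UMIs. A Cdkn1a UMI was then present in 28.9% (28.0 to 29.9) of young and 54.7% of old mesenchymal cells, and 7.99% and 28.1% had 2 or more. Ccnd2 was present in 54.5% and 75.4%, Trp53 in 10.6% and 19.3%, and Mdm2 in 8.32% and 14.5%. At equal depth a higher level itself raises the share of cells with a UMI, so these shares do not measure spread. Cells with 4 or more Cdkn1a UMIs made up 0.567% of young and 6.69% of old cells. The variance of Cdkn1a counts over their mean was 1.36 and 1.83. Cdkn2a had a UMI in 4.12% (3.72 to 4.55) of young and 5.45% of old mesenchymal cells, and in 18.1% of young mesothelial cells. Without thinning these shares were 15.1%, 21.8% and 58.6%. As a background, old endothelial cells had a Cdkn2a UMI in 0.970% and old macrophages in 2.11% of thinned cells, at median depths of 10867 and 6144 UMIs before thinning. Mesenchymal cells, at medians of 9384.5 and 9573.5 UMIs, lay above both. The macrophage interval, 0.256 to 7.40% on 2 of 95 cells, still holds the mesenchymal shares.

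Pairs of the 10 genes were checked for detection in the same cell. Cdkn2b had a UMI in 5.29% (3.26 to 8.05) of young mesenchymal cells with a Cdkn2a UMI and in 2.77% (2.44 to 3.14) of those without. In the old library these shares were 6.92% (4.92 to 9.41) and 4.35% (3.95 to 4.79). The neighbours were thus found together 1.84 and 1.54 times as often as their separate shares give. This was not particular to neighbours: Cdkn2a with Cdkn2c stood at 1.49 times in young and 1.07 times in old mesenchymal cells. In young noncycling cells Cdkn2a stood at 2.07 times with Cdkn2c and 1.89 times with Cdkn2b. The gate also kept some cells with mesothelial markers, whose part in these values was not tested. Cdkn1a and Mdm2 were found together 1.27 and 1.20 times as often in noncycling young and old cells: an Mdm2 UMI was present in 9.95% of young cells with Cdkn1a against 7.06% of those without, and in 16.9% against 10.9% of old cells. Cdkn1a with Ccnd1 stood at 1.25 times in young noncycling cells, so the value was not particular to Mdm2. Trp53 with Cdkn1a stood at 0.92 and 1.01 times. Cdkn1a, Mdm2 and Ccnd1 all rose with the depth of noncycling cells, as given above. Trp53 did not rise in the young library, at 52.2 CPM under 5000 UMIs and 42.0 CPM at 15000 or more. Thinning evens out UMIs per cell but not such differences in level, and their part in these values was not tested. The cells of a pair share a library, and no test was made.

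Around the 10 genes, 4 pathway lists were described in mesenchymal cells, old against young. Of 29 p53 targets measured, 12 were at least 1.5-fold higher and 2 lower, beside 19.3% and 12.4% of all genes. Their median log2 ratio was 0.48, beside 0.12 for all genes. Gdf15, a secreted stress cytokine, was at 4.42 CPM in young and 51.7 CPM in old cells, and Gadd45a, a growth-arrest and DNA-damage gene, at 10.9 and 30.9 CPM. Pmaip1, the gene of the pro-apoptotic protein Noxa, and Perp were lower, at log2 ratios of -1.26 and -1.28. The p53 targets were thus not higher as a block. Scaling by the median ratio, which also lowered the share of all genes called higher, left 7 of these targets higher.

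Of 13 p53 regulators measured, 0 were higher or lower by the limit, with Trp53bp1 the farthest at a log2 ratio of 0.50. Among 32 cyclins, kinases and genes of the retinoblastoma axis, 1 was higher and 4 were lower, beside 19.3% and 12.4% of all genes. The lower count is thus near the share of all genes. The higher one was Cdk1, the mitotic kinase, at 49.1 CPM in young and 81.7 CPM in old cells. Cdkn1c, the p57 gene and the last of the CIP/KIP family, was lower, at 5.45 and 1.59 CPM, as were the repressor genes E2f6 and E2f7, at log2 ratios of -0.94 and -0.83. Among 22 regulators of the INK4-ARF locus, only Kdm6b, a histone H3K27 demethylase, and Tbx3 were higher, 1.89-fold and 1.53-fold, beside 19.3% of all genes. Only Tbx2, which like Tbx3 encodes a T-box repressor of the locus, was lower, beside 12.4% of all genes. It was at 4.53 CPM in young and 1.61 CPM in old cells. The other regulators on the list, among them Bmi1, Ezh2 and Suz12, were within the limit.

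The same lists were read between cycling and noncycling cells. Of the 32 cyclins, kinases and retinoblastoma genes, 23 were higher in young and 22 in old cycling cells, beside 12.4% and 10.5% of all genes. The choice of cells by other cell-cycle genes favours such counts. Ezh2, the H3K27 methyltransferase of Polycomb complex PRC2 that silences the INK4-ARF locus, was at 15.1 CPM in noncycling and 69.9 CPM in cycling young cells, and at 10.9 and 58.0 CPM in old cells. Suz12 of the same complex was at 22.4 and 44.9 CPM in young and at 22.1 and 38.6 CPM in old cells. In young mesothelial against mesenchymal cells, Pmaip1 was at 43.0 against 8.69 CPM, and Cdk6, a partner of the D-type cyclins, at 99.4 against 29.6 CPM. Genes of the same lists also went the other way. Gdf15 was at 0.395 against 4.42 CPM, on 1 mesothelial UMI, E2f6 at 14.2 against 29.2 CPM, and E2f7 at 2.76 against 7.61 CPM. Of all genes 20.1% were higher and 16.4% lower in this comparison.

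Finally, genes were ranked by how closely their log2(CPM + 1) followed Cdkn2a or Cdkn1a over the 6 gate-by-library units with 50 cells, among 10853 genes with at least 500 UMIs. The closest to Cdkn2a were Bsg, Oscp1, Wnt4, Vezf1 and Efna2, with Pearson r from 0.98 to 0.99. The closest to Cdkn1a were Serpinb1a, A730049H05Rik, Slc15a4, Zcchc9 and Gm16062, with r from 0.94 to 0.98. Units of one library share its depth and preparation, and a high r over 6 points among this many genes is a description only.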

How the data were processed

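The authors deposited raw counts of UMIs for each gene in each cell barcode, made with the 10x Genomics Chromium 3′ kit (version 2, per the labels' protocols) and written by Cell Ranger 3.0.1, per the file headers. The genome build was mm10, per the submitters' processing notes. The young library held 13104 barcodes with 130398999 UMIs and the old one 14636 with 147166475. Barcodes with under 500 genes or over 10% mitochondrial UMIs were left out. The automatic threshold of Scrublet (scanpy 1.11.5) called 0 doublets, so the highest-scoring cells were removed, 0.8% per 1000 cells, which took out 1302 young and 1504 old cells. Coordinates came from GENCODE vM21, where 30934 of the 31053 identifiers were found.

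UMIs were summed per gate and library and scaled to CPM (Python 3.11.15, scipy 1.17.1). Levels carry exact Poisson, ratios exact conditional Poisson and shares exact Clopper-Pearson 95% intervals. A gene counted as higher or lower at 1.5-fold with at least 20 UMIs over both sides; no p-value is given because each age has 1 library. A cell passing more than 1 non-mesenchymal gate was left out. The ratio script was tested on simulated data. The members, gene lists and marker lists were chosen with earlier results of these data known. Named outside the 10 genes were up to 4 genes per list and comparison with the largest log2 ratio and at least 100 UMIs, the 5 genes closest to Cdkn2a and to Cdkn1a, and Atf3, which was chosen after its values were seen. The alternatives varied doublet removal, gate size, the mitochondrial limit, scaling, the UMI minimum, depth and cell subsets. Cells without mesothelial markers, and cells without Atf3 or Gdf15, were subsets chosen after seeing the data.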

Additional observations from a re-analysis of the deposited data

Results flagged for a closer look

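Cdkn2a and Cdkn2b had ratios of opposite sign in mesenchymal and mesothelial cells, old against young. Cdkn2a had a log2 ratio of 0.43 in mesenchymal and -1.66 in mesothelial cells. Cdkn2b had 0.42 in mesenchymal and -1.44 in mesothelial cells. The difference between the cell types was not tested, since each age has 1 library, and the old mesothelial values rest on 15 and 7 UMIs from 35 cells.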

How the results depend on the processing

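The alternatives recomputed the 10 genes for old against young mesenchymal cells and for cycling against noncycling mesenchymal cells. No value in these comparisons that was past the 1.5-fold limit changed sign. Mesothelial against mesenchymal values were recomputed for Cdkn2a only. The endothelial, macrophage and adipocyte values, those of cells without a gate, and those of mitotic-only against S-phase-only cells were not recomputed. Of 280 recomputed values 54 moved beyond their counting interval, 0 moved by over 1.5 times, 4 near 0 changed sign and 5 crossed the 1.5-fold limit. The crossings were Cdkn2d old against young, at 0.52 with median-ratio scaling and 0.56 in noncycling cells, Cdkn2a at 0.67 without mesothelial markers, and Ccnd1 in cycling old cells, at 0.58 without doublet removal and 0.39 in cells of 5000 to 15000 UMIs. The Cdkn2a log2 ratio in mesenchymal cells was 0.57 with the gate at 3 of 8 markers, 0.30 with median-ratio scaling, 0.52 in noncycling cells and 0.67 without mesothelial markers. Young mesothelial against mesenchymal Cdkn2a was 3.12 at 3 of 8 markers and 3.10 without mesothelial markers. At 3 of 8 markers 2 further gates reached 50 cells in both libraries, against 0 at 4 of 8, and 1 INK4-ARF regulator was higher, as with median-ratio scaling. With the gate at 5 of 8 markers 2 genes of the cyclin list were higher, with median-ratio scaling 7 p53 targets, and with a minimum of 1 UMI 2 p53 regulators. No share of all genes stands beside these list counts, so they are given as changes with processing only. Shares of cells depended on thinning. Cdkn1a was found in 28.9% of young and 54.7% of old mesenchymal cells with it, and in 64.0% and 85.8% without it. Unthinned, 21.7% of young and 24.0% of old Cdkn2a-positive cells had a Cdkn2b UMI. The cause of these changes was not tested. No paired analysis was possible because each age has 1 library and no test was made. The mesothelial comparison is limited by its 35 old cells, beside 215 young ones, at median depths of 8509 and 10225 UMIs.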
